A study of Mus musculus with 3 samples.

Results

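The 6 genes described here encode cell surface proteins known for their part in the fusion of osteoclast precursors, namely Dcstamp, Ocstamp, Cd44, Cd47, Sirpa and Adam8. They were chosen by name, as the transcripts of the mRNA table whose GENCODE M21 gene symbol is one of the 6, and the reads of the transcripts were summed per gene. All 6 had rows, among 15815 gene symbols in the table. The annotation holds 48 transcripts of these genes, 36 of them were listed among 56651 transcripts, and 29 had at least 20 reads over the 3 libraries together.

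RNA of apoptotic bodies (ABs), the vesicles that dying cells shed, was sequenced in 3 libraries, 1 for each parental cell type. These were bone marrow macrophages (BMMs, giving BMM-ABs), preosteoclasts (pOCs, giving pOC-ABs) and mature osteoclasts (mOCs, giving mOC-ABs), all grown from the bone marrow of C57BL/6 mice (male, per the methods) at post natal week 11, with no genetic change named. Per the labels, M-CSF at 50 ng/ml for 72 h made BMMs of marrow cells, M-CSF at 30 ng/ml with RANKL at 100 ng/ml then gave pOCs after 24 h and mOCs after 72 h or more, and alendronate at 500 μM for 12 h induced the ABs of all 3 cell types. The methods of the study name staurosporine in place of alendronate, a longer time of RANKL for mOCs, a shorter time of M-CSF for BMMs and, for stained cultures, a higher M-CSF dose beside RANKL. The titles of the samples speak of cells where the design text speaks of ABs, and the latter was followed. Cultures of this kind hold cells of several stages at a time, and neither the number of mice nor of cultures behind a library was given in the sources used here.

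Osteoclasts are the bone-resorbing cells of the macrophage lineage, and they become large and multinucleated because mononuclear precursors fuse under M-CSF and RANKL. DC-STAMP and OC-STAMP are multi-pass membrane proteins that RANKL induces, and precursors that lack either one stay largely mononuclear. CD44 is a receptor of hyaluronan and osteopontin, SIRPα (once named macrophage fusion receptor) and its ligand CD47 bind each other across apposed cells, and ADAM8 is a membrane-anchored metalloprotease-disintegrin known to promote osteoclast formation. Macrophages carry the latter 4 before RANKL as well.

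The members' transcripts differ at a few exon junctions, and the alternatives on which the results below turn are shown first. The sequences are those of the GENCODE M21 transcripts (GRCm38), with 15 bases on each side of a junction, and the capitals mark the bases after it. Both Dcstamp transcripts share the end of exon 2 (chr15, plus strand, last base 39755225), and Dcstamp-203 enters exon 3 later than Dcstamp-201 does:
Dcstamp-201: aaactacgtggagagAAGCAAGGAACCCAA
Dcstamp-203: aaactacgtggagagCTTAAAATTCTCGTG
The stretch left out of Dcstamp-203 is 168 bases long (chr15:39759314-39759481) and, at 56 codons, keeps the reading frame.

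Cd44 transcripts leave exon 5 (chr2, minus strand, last base 102853015) either for the constant part of the gene or for the variable exons, which lengthen the stalk of CD44 outside the cell:
Cd44-203: gcaccttggccaccaGAGATCGAGACTCAT
Cd44-201: gcaccttggccaccaTTGCCTCAACTGTGC
Cd44-203 holds none of the variable exons, and Cd44-201 holds 10 that Cd44-203 lacks, with 1245 bases in all.

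Sirpa transcripts either use or skip a pair of exons after exon 2 (chr2, plus strand, last base 129609260), which code for immunoglobulin-like domains near the membrane, while exon 2 codes for the outermost domain that binds CD47:
Sirpa-203: aggtctatgtactcgCCAAACCTTCTCCAC
Sirpa-209: aggtctatgtactcgATAATAATGCTACCC
The 2 skipped exons (chr2:129615447-129615764 and chr2:129616223-129616558) hold 654 bases.

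For Adam8 the alternatives are a spliced junction and an exon that runs into a kept intron (chr7, minus strand, last exon base 139986733), with no coding sequence annotated in the latter:
Adam8-202: gatgtactctggcagGATCAACCGGTGTGG
Adam8-203: gatgtactctggcagGTAAGCATCAAGGCC
The retained-intron transcript Adam8-203 keeps 2 introns of Adam8-202, with 555 bases in all (chr7:139986469-139986732 and chr7:139987269-139987559).

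Where 3 values stand in a row below, they are those of the BMM-AB, the pOC-AB and the mOC-AB library in that order. The mRNA table summed to 9100082, 7387317 and 7705592 reads, of which the 6 genes held 8076, 3627 and 4136. Levels are given in RPM, the reads of a gene divided by the total of the mRNA table and multiplied by 1000000, and 3 reads in a library are 0.330, 0.406 and 0.389 RPM. In the comparison G1 the level in pOC-ABs was divided by that of BMM-ABs. In G2 mOC-ABs were set against BMM-ABs, and in G3 against pOC-ABs, so that the 3 comparisons share libraries and are not independent of each other. With 1 library per AB type there was no spread between samples and no test, and a ratio above 2 or below 0.5, the fold limit of the study's methods, is called past 2-fold. The 95% intervals of ratios and shares are exact (Clopper-Pearson) and hold only the error of counting, with 1 library per AB type. Molecules were not tagged with identifiers, so copies of a molecule can count as several reads. The intervals can thus be too narrow even for the error of counting. In such bulk RNA, fewer ABs of a kind and less of an RNA per AB cannot be told apart.

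Of the 6 genes, Dcstamp and Ocstamp were higher past 2-fold in mOC-ABs than in BMM-ABs and Cd44 was lower, and Adam8 was lower past 2-fold in pOC-ABs. Cd47 and Sirpa stayed within 2-fold in all 3 comparisons, with ratios to BMM-ABs below 1, and Ocstamp in G1 had an interval that includes no difference. In G1, 1 of the 6 was past 2-fold (Adam8, lower), beside 4.84% of 12691 genes with at least 20 reads that were higher and 6.05% that were lower. In G2, 2 were higher past 2-fold (Dcstamp and Ocstamp) and 1 was lower (Cd44), beside 4.12% and 8.97% of the genes. In G3, 1 was higher (Ocstamp) and none was lower, beside 3.48% and 6.81%. Over the 6 genes the median log2 ratio was -0.65, -0.65 and 0.25 for G1 to G3, and over the 12691 genes it was -0.021, -0.053 and -0.048.

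**Figure D1:**
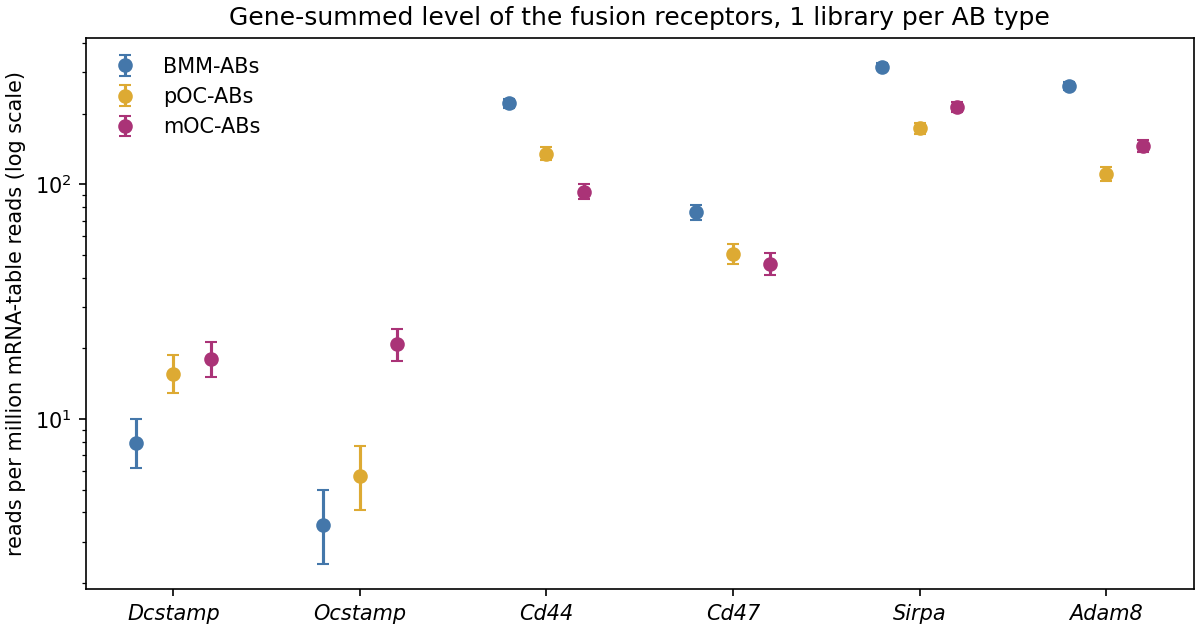
RPM (reads scaled to the mRNA table, log axis) for each of the 6 genes in the 3 AB libraries, 1 per type, where points are gene sums and bars are 95% exact intervals of the counts. Dcstamp and Ocstamp lie between 3.52 and 20.8 and are lowest in BMM-ABs, and the other 4 genes lie between 45.8 and 317 and are highest there.

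Dcstamp (ENSMUSG00000022303, chr15:39745930-39760938, plus strand) had 72, 115 and 138 reads. These are 7.91, 15.6 and 17.9 RPM. The level was thus lowest in BMM-ABs, and those of pOC-ABs and mOC-ABs were close to each other. The ratio was 1.97 in G1 (95% interval 1.45 to 2.68), just inside the 2-fold limit, and 2.26 in G2 (1.69 to 3.05). In G3 it was 1.15, with an interval from 0.892 to 1.49 that includes no difference. The G1 ratio passed 2 when the libraries were scaled by their upper quartile or by the reads on protein-coding transcripts. It was lower, at 1.71, with the mRNA and lncRNA reads together as the library total, and 1.53 with summed FPKM, a level per length of transcript.

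Most Dcstamp reads were assigned to Dcstamp-201, the full-length transcript, with 53, 77 and 118 reads. Dcstamp-203, the transcript with the shortened exon 3 shown above, had 1, 28 and 2 reads. It therefore made up 24.3% of the gene's reads in pOC-ABs (16.8% to 33.2%), against 1.39% in BMM-ABs (0.0352% to 7.50%) and 1.45% in mOC-ABs (0.176% to 5.14%). Its ratio was 34.5 in G1 with an interval from 5.70 to 1410, since the BMM-AB value rests on 1 read. Without Dcstamp-203, the G1 ratio of the gene was 1.51 (1.09 to 2.10) and the G3 ratio 1.5 (1.14 to 1.98). Dcstamp-201 alone had a G1 ratio of 1.79 (1.24 to 2.59), a G3 ratio of 1.47 (1.09 to 1.98) and a G2 ratio of 2.63 (1.89 to 3.71), so its level was in the order of the stages. A short transcript, Dcstamp-206, had 8, 2 and 13 reads.

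Ocstamp (ENSMUSG00000027670, chr2:165393760-165400405, minus strand) is annotated with 1 transcript, and it had 32, 42 and 160 reads. The levels were 3.52, 5.69 and 20.8 RPM. In contrast to the summed Dcstamp reads, the large step of Ocstamp lay between pOC-ABs and mOC-ABs. On the side of Dcstamp this contrast rests on Dcstamp-203, without which its ratios were 1.51 in G1 and 1.5 in G3. The ratio was 1.62 in G1, with an interval from 0.997 to 2.65 that includes no difference, and 3.65 in G3 (2.59 to 5.26). In G2 it was 5.90 (4.02 to 8.92), the largest ratio of the 6 genes in either direction. It was above that of 99.1% of the 12691 genes with at least 20 reads. Dcstamp in G2 was above 96.8% of the genes.

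Together Dcstamp and Ocstamp held 1.29% of the reads of the 6 genes in BMM-ABs (1.05% to 1.56%), while pOC-ABs had 4.33% (3.69% to 5.04%) and mOC-ABs 7.21% (6.44% to 8.04%). The other 4 genes summed to 876, 470 and 498 RPM, where Dcstamp and Ocstamp summed to 11.4, 21.3 and 38.7. The reads of the 6 genes thus came mostly from the receptors that macrophages carry before RANKL, in every library.

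**Figure D2:**
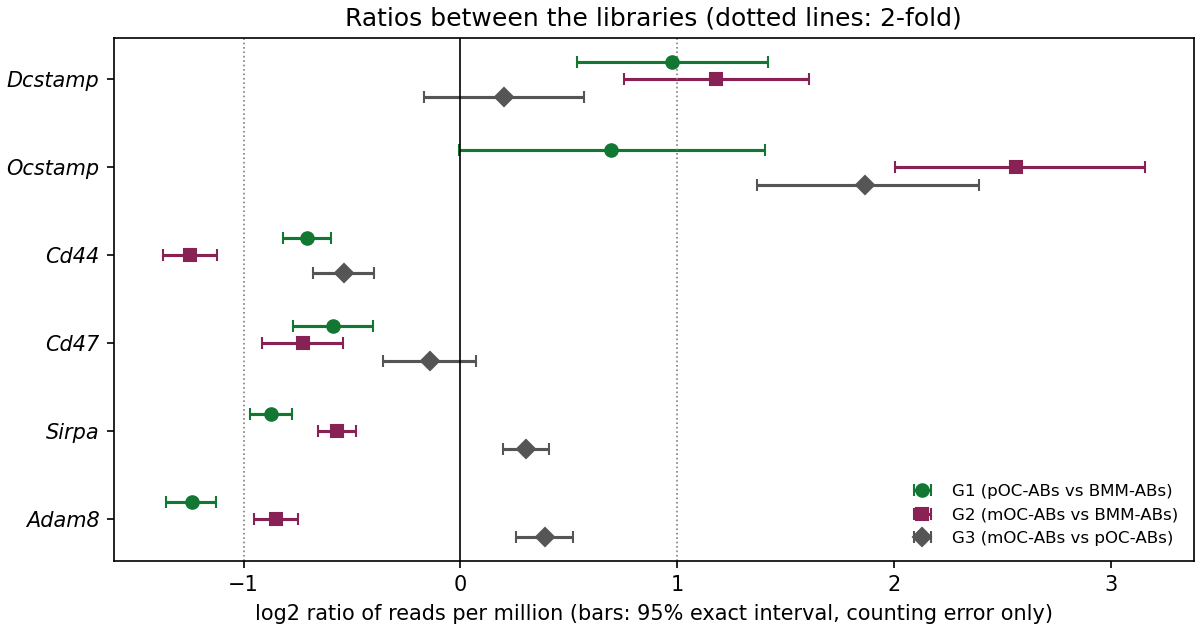
Log2 ratio of RPM (horizontal axis) of each of the 6 genes in G1, G2 and G3, with bars for 95% exact intervals of the counts and dotted lines at 2-fold. Ocstamp in G2 (2.56) and G3 (1.87) and Dcstamp in G2 (1.18) lie right of the upper limit, and Adam8 in G1 (-1.24) and Cd44 in G2 (-1.25) lie left of the lower one.

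Cd44 (ENSMUSG00000005087, chr2:102811141-102901665, minus strand) had 2009, 998 and 717 reads, which are 221, 135 and 93.0 RPM. Its level was lower in each later stage, and it was the only one of the 6 genes that was lower with an interval short of 1 in all 3 comparisons. Set against BMM-ABs, it was at 0.612 in pOC-ABs (G1, 0.567 to 0.661) and at 0.421 in mOC-ABs (G2, 0.386 to 0.459), and the ratio of the latter pair was 0.689 (G3, 0.625 to 0.759).

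The short form Cd44-203 held most of the reads in each library, with 1429, 725 and 559 reads, or 71.1%, 72.6% and 78.0%. The long form Cd44-201 had 303, 178 and 112 reads. Transcripts with variable exons made up 20.5% of the coding reads in BMM-ABs (18.7% to 22.5%), against 23.3% in pOC-ABs (20.6% to 26.1%) and only 16.7% in mOC-ABs (13.9% to 19.7%). The share was thus higher in pOC-ABs than in mOC-ABs, with intervals that do not overlap. This rests in part on Cd44-206 and Cd44-207, which had no reads in mOC-ABs. Cd44-201 alone held 17.8% of the gene's reads in pOC-ABs (15.5% to 20.4%) and 15.6% in mOC-ABs (13.0% to 18.5%), with intervals that overlap. The shares count reads assigned to whole transcripts, and not each of them covers a variable exon. Cd44-201 and Cd44-207 also run on downstream to base 102811141, where Cd44-203 ends at 102812547. Cd44-201 is 5614 bases long, against 2848 for Cd44-203. Per length, Cd44-201 held 7.81%, 9.65% and 8.30% of the summed FPKM of Cd44. Cd44-207, which holds some of the variable exons, had 42, 31 and 0 reads. With a floor of 3 reads in place of 0, mOC-ABs stood 11.9-fold lower than BMM-ABs, and the interval of the G2 ratio reached up to 0.108. Cd44-206 had 14, 11 and 0 reads. All 5 Cd44 transcripts with at least 20 reads were lower past 2-fold in G2, beside 25.1% of all 34650 transcripts with as many reads. Of the 5, the retained-intron transcript Cd44-209 was the furthest from 1 among those with reads in mOC-ABs. It had 211, 53 and 46 reads and a G2 ratio of 0.257 (0.183 to 0.356).

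Cd47 (ENSMUSG00000055447, chr16:49800533-49915010, plus strand) had 690, 373 and 353 reads. The levels were 75.8, 50.5 and 45.8 RPM. Its range was the narrowest of the 6 genes, with the highest library 1.66 times the lowest, and no ratio was past 2-fold. The ratio was 0.666 in G1 (0.586 to 0.756) and 0.604 in G2 (0.530 to 0.688), and in G3 it was 0.907 with an interval from 0.782 to 1.05 that includes no difference. Of its 10 annotated transcripts 2 were listed, Cd47-201 with 651, 336 and 334 reads and Cd47-202 with 39, 37 and 19.

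Sirpa (ENSMUSG00000037902, chr2:129592835-129632228, plus strand), the receptor of CD47, had the most reads of the 6 genes in every library, with 2887, 1279 and 1647. These are 317, 173 and 214 RPM. The level was lowest in pOC-ABs, and that of mOC-ABs lay between those of the other 2 libraries. The ratio was 0.546 in G1 (0.511 to 0.583) and 0.674 in G2 (0.634 to 0.716), and above 1 in G3, at 1.23 (1.15 to 1.33). With the mRNA and lncRNA reads together as the library total, or with FPKM (the deposited level per length of transcript), the G1 ratio was 0.475 and 0.458, past the 2-fold limit. The related genes Sirpb1a and Sirpb1c had 5 reads or fewer in each library.

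All 14 annotated Sirpa transcripts were listed, and 12 had at least 20 reads. Sirpa-203, with all its immunoglobulin-like domains, had 1289, 535 and 607 reads, and the short form Sirpa-209 had 572, 208 and 326. Transcripts without the 2 skipped exons made up 25.4% of the coding reads in BMM-ABs (23.8% to 27.1%) and 25.7% in mOC-ABs (23.6% to 27.9%), and 19.9% in pOC-ABs (17.7% to 22.2%). The share of the short forms was therefore lowest in pOC-ABs, with an interval apart from both others. These are shares of reads, and Sirpa-209 is 876 bases long, against 3982 for Sirpa-203. Per length, Sirpa-209 stood above Sirpa-203 in every library. Sirpa-214 had 68, 97 and 110 reads, with a ratio above 1 in G1 (1.76, 1.28 to 2.43) and in G2 (1.91, 1.40 to 2.62), where the gene as a whole was below 1. Sirpa-211 had 97, 82 and 146 reads, with a ratio of 1.78 in G2 (1.37 to 2.32) and of 1.04 in G1, whose interval from 0.766 to 1.41 includes no difference. The retained-intron transcript Sirpa-212 had 68, 13 and 23 reads.

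Adam8 (ENSMUSG00000025473, chr7:139978932-139992562, minus strand) had 2386, 820 and 1121 reads, which are 262, 111 and 145 RPM. Like Sirpa, it was highest in BMM-ABs and lowest in pOC-ABs. The ratio was 0.423 in G1 (0.391 to 0.459), past 2-fold and below that of all but 3.47% of the genes with at least 20 reads. It was 0.555 in G2 (0.516 to 0.596) and 1.31 in G3 (1.20 to 1.44).

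The Adam8 transcripts differed in their ratios. The retained-intron transcript Adam8-203 had 511, 408 and 505 reads, at 56.2, 55.2 and 65.5 RPM. Its level was thus nearly the same in BMM-ABs and pOC-ABs, with a ratio of 0.984 in G1 (0.861 to 1.12) and 1.17 in G2 (1.03 to 1.32). All other 5 Adam8 transcripts with at least 20 reads were lower past 2-fold in G1 and in G2. Over all 34650 transcripts with as many reads, 21.8% were lower in G1 and 25.1% in G2. The coding transcript Adam8-202 had 796, 173 and 283 reads, with a ratio of 0.268 in G1 (0.226 to 0.316), and the retained-intron transcript Adam8-207 had 672, 111 and 175, with a ratio of 0.203 (0.165 to 0.249).

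Adam8-203 accordingly took 21.4% of the Adam8 reads in BMM-ABs (19.8% to 23.1%), against 49.8% in pOC-ABs (46.3% to 53.2%) and 45.0% in mOC-ABs (42.1% to 48.0%). Retained-intron transcripts together held 52.4%, 65.7% and 62.6% of the Adam8 reads. Over the whole mRNA table such transcripts held 5.22%, 4.21% and 3.84% of the reads, which is lower in the later stages. Reads are assigned to whole transcripts here too, and not each of them covers a kept intron. The kept introns are 555 of the 3669 bases of Adam8-203 and 784 of the 3089 bases of Adam8-207. Per length, Adam8-203 held 15.3%, 38.4% and 34.4% of the summed FPKM of Adam8. On the 2 coding transcripts alone, Adam8 had 1111, 275 and 407 reads, and its ratio was 0.305 in G1 (0.266 to 0.348) and 0.433 in G2 (0.385 to 0.485), past 2-fold in both. Without Adam8-203 the ratio of the gene was 0.271 in G1 and 0.388 in G2.

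**Figure D3:**
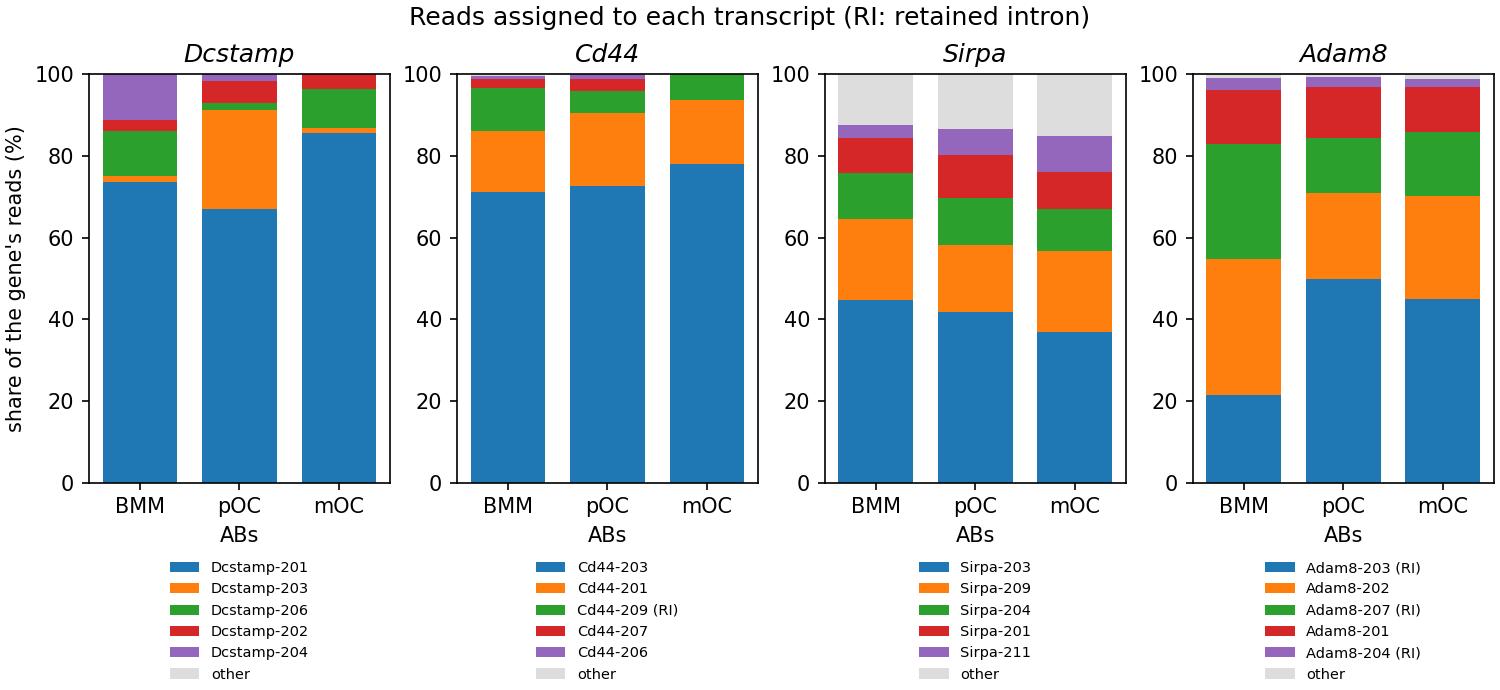
Share of the reads of Dcstamp, Cd44, Sirpa and Adam8 (vertical axis, %) assigned to each transcript in the 3 AB libraries, for the 5 transcripts with the most reads and the others together, where RI marks retained-intron transcripts. Adam8-203 takes 21.4% in BMM-ABs and 49.8% in pOC-ABs, and Dcstamp-203 reaches 24.3% in pOC-ABs alone, while Cd44-203 holds 71.1% to 78.0% throughout.

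Over all 6 genes, 1 of 29 transcripts with at least 20 reads was higher past 2-fold in G1 (Dcstamp-203) and 14 were lower, beside 14.5% and 21.8% of 34650 transcripts in the table. In G2, 3 were higher and 14 lower, beside 13% and 25.1%. In G3, 3 were higher and 4 lower, beside 15.3% and 20.5%. Of the 14 lower ones in G1, 7 were Sirpa transcripts and 5 were Adam8 transcripts. A read that fits several transcripts of a gene is assigned by the authors' software, so that the sum of a gene is firmer than the split among its transcripts. Per length, too, the split differs, since Sirpa-209 then held 39.8%, 38.9% and 42.9% of the summed FPKM of Sirpa and Sirpa-203 only 19.7%, 22.0% and 17.6%.

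Levels of different genes were compared per length, as the FPKM summed over a gene's transcripts. In BMM-ABs the order was Sirpa (180.4), Adam8 (99.9), Cd44 (75.9), Cd47 (18.5), Dcstamp (6.71) and Ocstamp (0.962). In pOC-ABs it was Sirpa (82.6), Cd44 (44.5), Adam8 (39.2), Cd47 (14.4), Dcstamp (10.3) and Ocstamp (1.55), so Cd44 stood above Adam8 by 1.13 times. In mOC-ABs it was Sirpa (112), Adam8 (51.9), Cd44 (31.2), Dcstamp (14.3), Cd47 (11.1) and Ocstamp (5.68). Sirpa was thus first and Ocstamp last in all 3 libraries, and Dcstamp stood above Cd47 in mOC-ABs alone, by 1.29 times. With 1 library each, neither of these neighbouring pairs can be set against a spread. The place of Dcstamp above Cd47 also rests on short transcripts with few reads. In mOC-ABs, Dcstamp-206 (345 bases, 13 reads) gave 4.89 of the Dcstamp sum and Dcstamp-202 (409 bases, 5 reads) gave 1.59. Dcstamp-201 alone had 7.67 there, below the 8.21 of Cd47-201. Among the 12691 genes with at least 20 reads, Sirpa lay at percentile 96.4, 90.8 and 93.1 of summed FPKM. Dcstamp lay at 29.1, 40.6 and 52.3 and Ocstamp at 6.17, 9.93 and 28.3.

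Among 18 other genes known for a part in the fusion of macrophages or osteoclasts, 13 had at least 20 reads. In G1, 2 were higher past 2-fold and 1 was lower, in G2 1 was higher, and in G3 1 was higher and 1 lower. Over the 12691 genes with at least 20 reads, 4.84% were higher and 6.05% lower in G1. These shares were 4.12% and 8.97% in G2 and 3.48% and 6.81% in G3, and they apply to the counts of the lists below as well. Of the 13, Atp6v0d2, a subunit of the vacuolar proton pump needed for fusion, was the one that was higher in all 3 comparisons. It had 187, 873 and 2338 reads (ratio in G2 14.8, 12.7 to 17.2). Its ratio in G1, 5.75, was larger than that of Dcstamp or Ocstamp. The tetraspanin Tspan10 had 14, 28 and 18 reads, and Cd9, a tetraspanin of the cell surface, had 1703, 581 and 869 (ratio in G1 0.420, 0.382 to 0.462). The scavenger receptor Cd36 had 156, 161 and 69 reads (ratio in G3 0.411, 0.305 to 0.548). Their median log2 ratio was -0.38, 0.012 and 0.28 for G1 to G3, that of the partners below -0.25, -0.32 and -0.025 and that of the regulators -0.041, -0.34 and -0.21.

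Partners of the receptors (ligands, sheddases and proteins that bind their tails) were measured with at least 20 reads for 11 of 15 genes. In G1 none was higher and 1 was lower, Spp1, which encodes the CD44 ligand osteopontin and had 12438, 4804 and 8410 reads (ratio 0.476, 0.460 to 0.492). In G2 and in G3, 2 were lower and none was higher. These were Ezr, coding for ezrin, which links CD44 to actin, with 1221, 976 and 415 reads, and Fyb, an adaptor of the SKAP2 complex near SIRPα, with 910, 623 and 245. The phosphatase gene Ptpn6 (SHP-1), whose product docks on SIRPα, had 3121, 2684 and 2751 reads and a ratio of 1.06 in G1 and 1.04 in G2. Ptpn6 thus stayed within 1.1 times of its BMM-AB level where Sirpa did not. The sheddase genes Adam10 (891, 580 and 725 reads) and Adam17 (1556, 655 and 736), both acting in CD44 cleavage, were within 2-fold.

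All 14 regulators of these genes or of RANKL signalling had at least 20 reads. In G1 none was higher and 1 was lower, in G2 1 was higher and 4 were lower, and in G3 1 was higher and 2 were lower. The higher one was Nfatc1, the transcription factor that drives Dcstamp in RANKL-treated cells, with 2566, 2772 and 8463 reads. Its ratio of 1.33 in G1 and 2.93 in G3 put the larger step between pOC-ABs and mOC-ABs. Irf8, a repressor of osteoclast genes with 1330, 431 and 207 reads, was among the lower ones in G2 with a ratio of 0.184, and so were Fos (0.383), Jun (0.427) and the adaptor gene Fcer1g (0.494). Tnfrsf11a, the gene of the RANKL receptor RANK, was within 2-fold with 657, 386 and 603 reads.

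**Figure D4:**
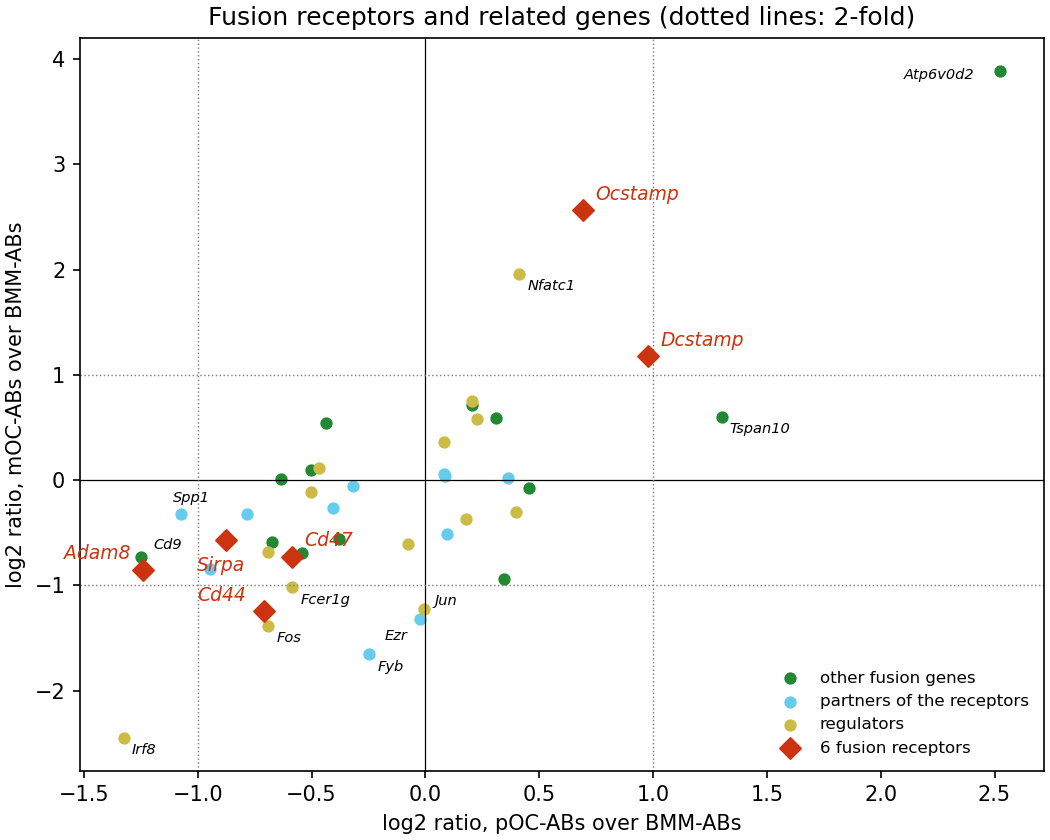
Log2 ratio in G1 (horizontal axis) against G2 (vertical axis), which share the BMM-AB library, for the 6 fusion receptors (diamonds) and for other fusion genes, partners and regulators with at least 20 reads (dots), with names at genes past 2-fold and dotted lines at 2-fold. Dcstamp and Ocstamp lie in the upper right with Nfatc1, Atp6v0d2 and Tspan10, and Cd44, Cd47, Sirpa and Adam8 lie in the lower left.

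The markers of the cell stages differed between the libraries as well. Of the osteoclast markers 6 had at least 20 reads, and 5 of them were higher past 2-fold in G2, among them Acp5 (88, 292 and 2157 reads), Ctsk (180, 171 and 1001) and Oscar (0, 7 and 49), while Calcr had no value and Itgb3 had 6, 3 and 0 reads. The osteoclast list summed to 278, 375 and 1264 RPM. The macrophage markers summed to 5774, 2764 and 1795, and 5 of the 6 with at least 20 reads were lower past 2-fold in G2, Lyz2 most (28844, 9854 and 3170 reads). Csf1r, the M-CSF receptor gene, was lowest in pOC-ABs with 9870, 2640 and 3902 reads, as were Sirpa and Adam8, and Cd68 was within 2-fold throughout. What part the mix of stages has in the ratios of the 6 genes was not tested. Lists for T cells, B cells, neutrophils, erythroid cells, stroma and megakaryocytes summed to at most 1.87 RPM each in any library, and no marker of neutrophils or erythroid cells had a value.

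For each of the 6 genes, the protein-coding genes with the most similar pair of log2 ratios in G1 and G2 (RPM plus 1) were looked up among 9881 genes with at least 100 reads, over 3 libraries only. Those of Dcstamp were Irf7, Oit3 and Apoo, and 6 genes lay within a distance of 0.1. For Ocstamp they were Faah, Car2 and Eno3, and only Faah, at 0.069, lay within 0.1. Car2, the osteoclast carbonic anhydrase, had 1473, 1911 and 5835 reads and stood at 0.12. Those of Cd44 were Tmem43, Acer3 and Slc11a1, with 15 genes within 0.1. Cd47 had 100 genes within 0.1, first Colgalt1, Slc44a1 and Prkd2. Sirpa had 46, first Slc35b3, Akap1 and Asph, and Adam8 had 18, first Pofut1, Xylt1 and Dnajc16. Of the 6 genes, Ocstamp thus had the fewest genes within 0.1 and Cd47 the most. The counting intervals are wider than this distance, in G1 from -0.0049 to 1.40 for Ocstamp and from -0.77 to -0.40 for Cd47 (log2). The counts therefore do not tell how many genes share a pattern.

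Noncoding RNAs were listed at 3 of the 6 loci. Within introns of Sirpa lie 2 NONCODE lncRNAs on GRCm38, NONMMUT039830.2 (chr2:129596327-129597219) with 145, 29 and 15 reads, and NONMMUT039831.2 (chr2:129604614-129606133) with 103, 56 and 22. Summed and scaled to the mRNA table like the genes, their ratio was 0.422 in G1 (0.326 to 0.542) and 0.176 in G2 (0.121 to 0.250). In G3 it was 0.417 (0.276 to 0.621), so they were lower in mOC-ABs than in pOC-ABs where Sirpa itself was higher. One Cd47 intron holds NONMMUT026866.2 (chr16:49887318-49889425), with 15, 1 and 2 reads. The lncRNAs that overlap exons of Cd47 (4 of them, with 35, 21 and 24 reads) cannot be told apart from the gene where reads fit both. Another 3 lncRNAs, with 83, 50 and 74 reads, lie beside Adam8 within chr7:139950397-139978978. They overlap Adam8 only at its downstream edge, since the gene is on the minus strand and ends at 139978932. The summed reads of these 3 lncRNAs had a ratio of 0.742 in G1 (0.512 to 1.07) and 1.05 in G2 (0.759 to 1.46). No lncRNA was listed at Dcstamp, Ocstamp or Cd44.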

How the data were processed

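Transcript counts, FPKM and circRNA junction reads of 3 libraries were analysed. The labels gave the groups. The mRNA and lncRNA tables hold read counts as deposited by the authors, and FPKM that the authors made per length of transcript and per read total, for mRNAs that of the mRNA table alone. The lncRNA table also gives transcript lengths, deposited with the counts. The circRNA table holds the authors' junction read counts and a deposited score, SRPBM, which was not used. The submitters' processing notes name GRCm38, HISAT2, StringTie and FastQC, with no version. Whether counting used strand is not given in the sources used here. The methods describe poly-T purified, paired-end libraries.

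Counts were summed over the transcripts of each GENCODE M21 symbol and divided by the total of the mRNA table. Of the listed transcripts, 229 were not in M21 and were left out of gene sums. Ratios, shares and exact intervals were computed with Python 3.11.15, pandas 2.3.3 and SciPy 1.17.1, and figures were drawn with matplotlib 3.10.9. The ratio script was tested on simulated data. Genes and transcripts entered counts of calls with at least 20 reads over the 3 libraries. The genes named are the 6 members, their transcripts with at least 20 reads, the genes of fixed lists that passed 2-fold in a comparison with other list genes as examples, and the 3 genes nearest in pattern to each member. Sirpb1a and Sirpb1c were added as relatives of Sirpa. Some genes of the lists are not reported here and were left out of the list counts. The members and lists were chosen with earlier results of these data known. With 1 library per AB type no p-value was computed. Alternatives were 4 other scalings, protein-coding transcripts only, FPKM, a pseudocount of 1 RPM, overlapping lncRNA reads added, other minimum reads and, chosen after seeing the data, retained-intron transcripts left out.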

Additional observations from a re-analysis of the deposited data

Results flagged for a closer look

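A circular RNA of Sirpa stood in the circRNA table, which the comparisons of the report do not use. Its back-splice junction joins the end of a later exon to the start of an earlier one (chr2:129608904-129621227, plus strand, GRCm38), spans 12324 bases and encloses 5 exons of 1150 bases, among them the 2 exons that the short Sirpa forms skip. The junction, with capitals for the bases after it, is shown because these reads alone carry it:
circSirpa: aacatcttccacacgGAGCCACGGGGAAGG
It had 4 junction reads of 3413 in BMM-ABs, 10 of 2380 in pOC-ABs and 7 of 4014 in mOC-ABs, each above the 3 reads taken as the floor. As a share of all junction reads this was 0.117% (0.0319% to 0.300%), 0.420% (0.202% to 0.771%) and 0.174% (0.0701% to 0.359%). The ratio of these shares was 3.59 in G1, with an exact 95% interval from 1.03 to 15.7, whose lower end lies close to no difference. The linear Sirpa reads were lower in pOC-ABs, but they were scaled to the mRNA table and not to junction reads. The circular and the linear ratio are thus on unlike scales, and the circRNA ratio scaled to the mRNA table was not computed. The G2 ratio of 1.49 (0.378 to 6.93) and the G3 ratio of 0.415 (0.134 to 1.21) had intervals that include no difference. These intervals hold only the error of counting. No junction was listed at the other 5 genes.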

How the results depend on the processing

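With 9 alternative settings for 18 ratios of the 6 genes, 148 of 162 values lay within the counting interval of the reported value, 14 lay outside it and 0 changed sign. The number of the 6 genes past 2-fold in G1 was 1 as reported and 2 with the total of both tables or with FPKM (Sirpa and Adam8 lower), and 2 with the upper quartile or the protein-coding reads as the scale (Dcstamp higher, Adam8 lower). With both tables as the total, the log2 ratio in G1 was -0.91 for Cd44, -0.79 for Cd47, -1.07 for Sirpa and -1.44 for Adam8, and -0.67 for Sirpa in G2. This scaling shifts all genes alike, and the median of all genes by -0.20 in G1, -0.10 in G2 and 0.099 in G3. With it, 26.9% of the G1 calls over all genes were higher, against 44.4% as reported. With FPKM, the log2 ratio was -0.36 for Cd47 and -1.13 for Sirpa in G1, -0.68 for Sirpa in G2, and -0.38 for Cd47 and 0.45 for Sirpa in G3. On protein-coding transcripts alone, Adam8 was at -1.71 in G1 and -1.21 in G2, and without retained-intron transcripts at -1.71 and -1.20, where Adam8-203, Adam8-204 and Adam8-207 are left out by construction. The count of all genes past 2-fold (1382 in G1, 1661 in G2 and 1306 in G3) was 877 in G1 and 821 in G3 with a pseudocount of 1 RPM. It was 3024, 3367 and 3002 with no minimum of reads, and 767, 983 and 639 with at least 100 reads. Transcript shares by FPKM in place of reads left 72 of 87 values outside their counting intervals. Where no construction of the setting is named, the cause was not tested. No paired analysis was possible because there was 1 library per AB type, and leaving out a library ends the comparison. Depth limits values that rest on few reads, among them Ocstamp (32 reads in BMM-ABs), Dcstamp-203 (1 read there) and the circRNA of Sirpa (4 reads there).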
